A study of Homo sapiens with 10 samples.

Results

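H3K27ac was mapped in RPMI-8402 cells, a long-established line labelled T-ALL (T-cell acute lymphoblastic leukaemia), and all 39528 regions listed on the 22 autosomes and chromosome X are described here. They are 39528 of the 121294 regions in the 6 lists of the series that were used. The assay was CUT&RUN, in which an antibody bound in permeabilised cells recruits a nuclease that releases the DNA beside its target. By the labels the acetylation library belongs to set C, with an Abcam antibody and the IgG library of that set as its control. That IgG library was not analysed here. The other lists are H3K4me3 of set B, H3K4me1 of set C, MYC of set C, MYC of set D and MYCN of set A, all from the same untreated line. Each target but MYC has 1 library. The 2 MYC lists name a single signal track in their headers, and the set D library is labelled as its own control, so whether they are independent is unknown. The lists hold positions on hg19 and no score or read count, so the depth is unknown. No test between conditions is possible, and regions are not replicates. Shares are therefore given with exact 95% Clopper-Pearson intervals, which cover counting error over the listed regions only, and with no p-value.

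Acetylation of lysine 27 on histone H3 is laid down by p300 and CBP and marks active promoters and active enhancers. H3K4me3 marks the promoters among them, whereas H3K4me1 marks enhancers and the flanks of promoters. MYC and MYCN bind DNA with their partner MAX, mostly at open promoters. Distance to the nearest H3K4me3 region was therefore used to order acetylated regions from likely promoters outward. The question here was how width, spacing, H3K4me1 and the 2 factors change along that order. Distances run from edge to edge in 6 classes, of which the first holds regions that share at least 1 bp with H3K4me3.

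Most acetylated regions lay outside H3K4me3. Of the 39528 regions, 9156 (23.2%, interval 22.7 to 23.6%) overlapped H3K4me3. Another 760 (1.92%, 1.79 to 2.06%) lay under 2 kb from it, and 3308 (8.37%) lay at 2 to 10 kb. The distal classes, which span more distance, held more regions. There were 10235 (25.9%) at 10 to 50 kb and 10406 (26.3%) at 50 to 200 kb. A further 5663 (14.3%, 14.0 to 14.7%) lay over 200 kb away. Because the classes are unequal in span, these counts do not give the frequency per kb of distance. Outside H3K4me3 the median distance was 55.7 kb (quartiles 19.8 and 148 kb). The share at H3K4me3 depends on how that mark is drawn. It was 15.3% when only H3K4me3 regions at or above their median width were taken.

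Regions at H3K4me3 were wider than those elsewhere. Over the whole list, width ran from 155 to 3688 bp with a median of 551 bp (quartiles 305 and 879 bp), and the 95th percentile was 1531 bp. The 7552 regions of at least 1000 bp were 19.1% of the list and held 40.6% of its 25.9 Mb. At H3K4me3 the median was 731 bp (quartiles 450 and 1073 bp). Outside it the median was 427 bp under 2 kb, 486 bp at 2 to 10 kb, 494 bp at 10 to 50 kb, 506 bp at 50 to 200 kb and 517 bp over 200 kb. Beyond the edge of H3K4me3, width thus varied little with distance, and the narrowest class was the one nearest to it. A wide region near H3K4me3 overlaps it more easily, so the classes are not independent of width. These medians do not take that into account. The regions at H3K4me3 held 28.5% of all acetylated bases.

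At H3K4me3, acetylation usually sat within the methylated region. Of the 9156 regions, 6344 (69.3%) lay wholly inside H3K4me3, and 85.5% of the bases of the 9156 were covered by it. From the other side, 8891 H3K4me3 regions held 1 acetylated region, 282 held 2 and 3 held 3 or more, while 4676 held none. The median width of H3K4me3 was 695.5 bp with no acetylated region, 1578 bp with 1 and 2875.5 bp with 2. A wide region meets another list more easily, and these medians do not take that into account.

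**Figure D1:**
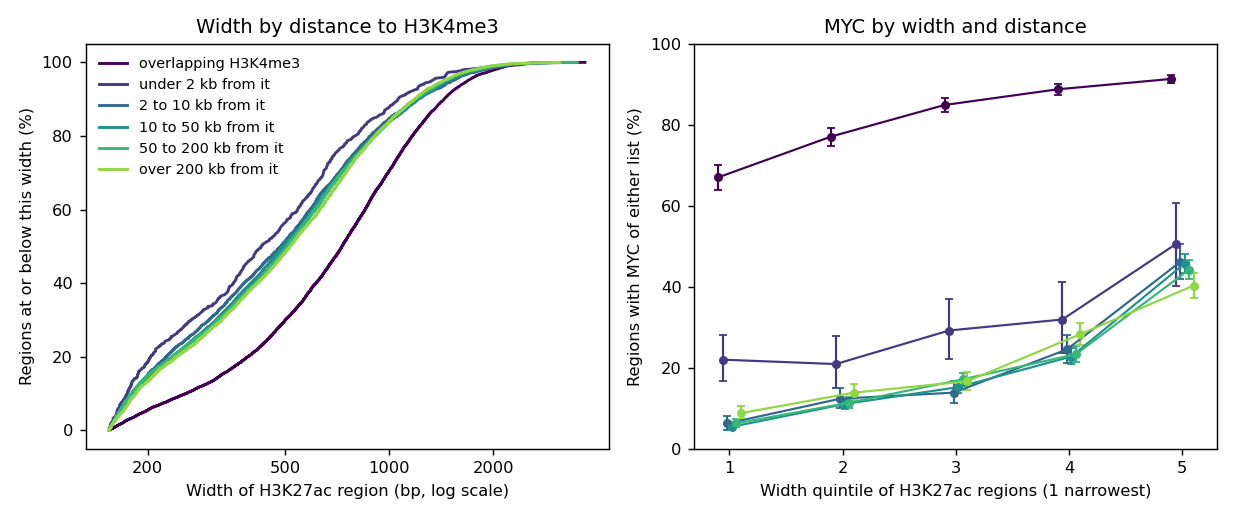
Left, cumulative share of H3K27ac regions (%) by width (bp, log scale) in each distance class, showing the class that overlaps H3K4me3 shifted to wider regions (median 731 bp). Right, share of regions with MYC of either list (%) by width quintile, with exact 95% intervals and the same colours: the class at H3K4me3 lies above the others in all 5 quintiles.

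Acetylated regions were unevenly spaced. The median gap from one region to the next on the same chromosome was 21.0 kb (quartiles 8.83 and 56.0 kb), and the smallest was 622 bp. Gaps under 1 kb numbered 1055 of 39505 (2.67%), and 359 (0.909%) were at least 1000 kb long. The gaps did not thin out steadily with length. There were 1077 between 1 and 2 kb, 678 between 2 and 3 kb and 644 between 3 and 4 kb, then 1127 between 4 and 5 kb and 1539 between 5 and 6 kb. Gaps of 5 to 6 kb were thus 2.39 times as frequent as those of 3 to 4 kb. The same ratio was 2.29 in the H3K4me1 list and 2.10 in the MYC list of set D. It was 0.678 in the MYC list of set C, which the header assigns to SEACR, and 0.835 in the H3K4me3 list. The headers assign both H3K4me3 and MYC of set D to MACS2. The dip is thus shared by 3 lists and absent from 2, and the part of the peak calling in it was not tested. The H3K27ac regions on either side of a gap of 2 to 4 kb were narrower (median 689.5 bp for the wider and 297.5 bp for the narrower of each pair) than those around a gap of 4 to 6 kb (852 and 361 bp). Regions around gaps under 1 kb (696 and 274 bp) and of 1 to 2 kb (680 and 288 bp) were similarly narrow. Narrow neighbours were thus not particular to the dip.

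**Figure D2:**
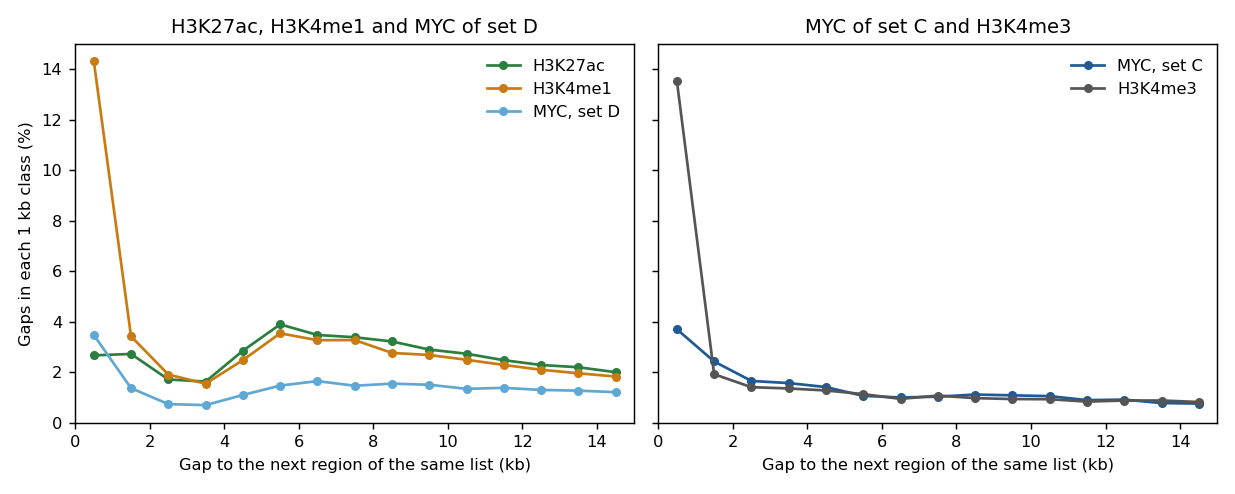
Share of gaps (%) in each class of 1 kb, by gap to the next region of the same list (kb). H3K27ac, H3K4me1 and MYC of set D (left) dip at 2 to 4 kb and rise again by 5 to 6 kb, while MYC of set C and H3K4me3 (right) fall without such a rise.

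Neighbours grew sparser far from H3K4me3. They were counted over all acetylated regions, those at H3K4me3 included. A region near H3K4me3 can thus have an acetylated region at H3K4me3 as its neighbour. One over 200 kb away cannot have such a neighbour within 50 kb. Part of the trend therefore follows from how the classes are defined. The nearest other acetylated region lay at a median of 3.35 kb for regions under 2 kb from H3K4me3, 6.54 kb at 2 to 10 kb, 10.6 kb at 10 to 50 kb, 12.3 kb at 50 to 200 kb and 18.8 kb over 200 kb. Regions at H3K4me3 had a median of 12.9 kb. Within 50 kb of the centre, the median number of other acetylated regions was 4 in each class from under 2 kb to 10 to 50 kb, 2 at 50 to 200 kb and 1 over 200 kb. Regions with none were 1777 of 5663 (31.4%) over 200 kb and 223 of 10235 (2.18%) at 10 to 50 kb. The share with none was 3.68% under 2 kb, 1.69% at 2 to 10 kb and 15.5% at 50 to 200 kb. At H3K4me3 itself it was 13.9% (1272 regions). Isolated regions were thus most frequent over 200 kb, and their shares at H3K4me3 and at 50 to 200 kb were close.

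MYC of either list fell steeply at the edge of H3K4me3, fell again by 2 kb and varied little from there outward. The second fall was mainly that of set C, from 20% under 2 kb to 8.68% at 2 to 10 kb. In set D these shares were 17.2% (14.6 to 20.1%) and 15.5% (14.3 to 16.8%), with overlapping intervals. Over the whole list 34.6% of acetylated regions met MYC of either list, 19.1% MYC of set C, 31.6% MYC of set D and 16.0% MYC of both. At H3K4me3, MYC of either list met 7778 of 9156 regions (84.9%, 84.2 to 85.7%). Under 2 kb it met 216 of 760 (28.4%, 25.2 to 31.8%). From there on the share was 18.7% at 2 to 10 kb (17.4 to 20.1%), 18.6% at 10 to 50 kb (17.9 to 19.4%), 19.2% at 50 to 200 kb (18.46 to 19.98%) and 20.7% over 200 kb (19.7 to 21.8%). The difference between the first class and the last was 64.2 percentage points, whereas the 4 classes from 2 kb outward lay between 18.6% and 20.7%.

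Both MYC lists fell at the edge of H3K4me3, from different heights. MYC of set D met 79.8% of regions at H3K4me3 (79.0 to 80.6%), and 17.2%, 15.5%, 16.4%, 17.2% and 18.6% in the classes that follow. MYC of set C met 56.5% at H3K4me3 (55.4 to 57.5%), then 20%, 8.68%, 7.61%, 7.12% and 7.31%. Among the far classes set D rose slightly with distance, from 16.4% (15.7 to 17.2%) at 10 to 50 kb to 18.6% (17.6 to 19.6%) over 200 kb. Set C did not, with 7.61% (7.10 to 8.14%) and 7.31% (6.65 to 8.02%). Against only the wider H3K4me3 regions set D did not rise either, with 22.8% at 10 to 50 kb and 21.6% over 200 kb. Where both lists had to meet the region, the share was 51.3% at H3K4me3 and between 5.14% and 5.44% from 2 kb outward. In bases, MYC of set D covered 47.7% of the acetylated DNA at H3K4me3 and between 8.30% and 10.0% of it in the other classes.

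**Figure D3:**
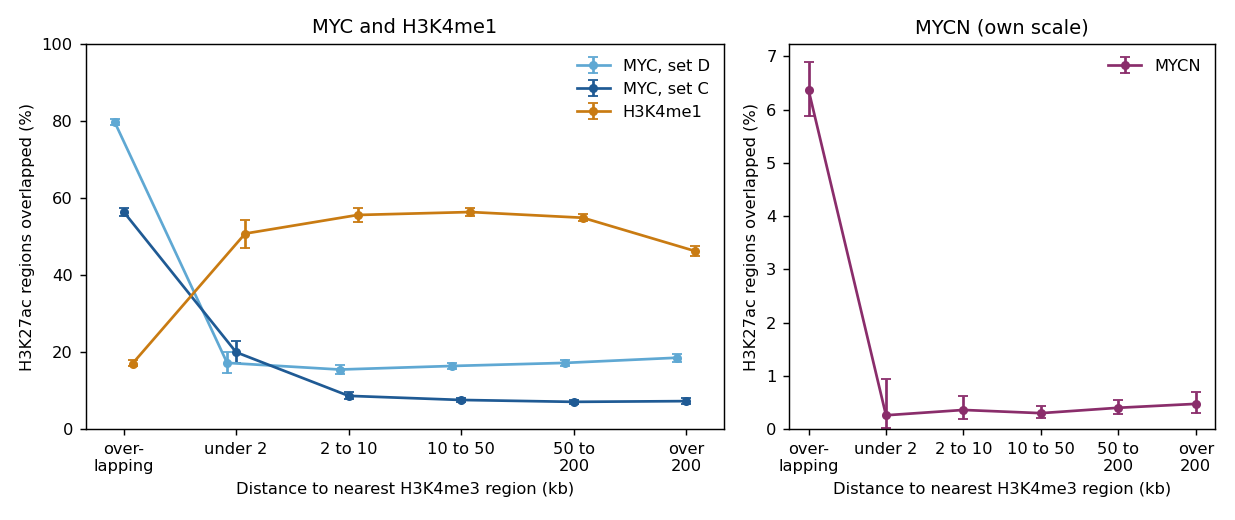
Share of H3K27ac regions (%) that share at least 1 bp with each list, by distance to the nearest H3K4me3 region (kb), with exact 95% intervals as bars. MYC of each list and MYCN (right, own scale) drop at the edge of H3K4me3, MYC of set C drops again from under 2 kb (20%) to 2 to 10 kb (8.68%), and the shares vary little from 2 kb on, while H3K4me1 rises there and is lower again over 200 kb.

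Just outside H3K4me3, many of the MYC peaks on acetylated regions also reached into it. Of the 216 regions under 2 kb with MYC, 95 (44.0%) met only MYC peaks that also touched H3K4me3. This applied to 84 of 152 for set C, whose MYC regions have a median width of 1165 bp, and to 52 of 131 for set D, with a median of 422 bp. Without such peaks the share under 2 kb was 15.9% (13.4 to 18.7%), against 18.7% at 2 to 10 kb with the same peaks left out. For set C the shares were then 8.95% and 8.62%, and for set D 10.4% and 15.5%. This setting was chosen after the data were examined. In finer steps, MYC of set D met 30.9% of the 233 regions under 0.5 kb from H3K4me3, 10.4% of the 173 at 0.5 to 1 kb and 11.6% of the 354 at 1 to 2 kb. It then met 11.2% of the 321 at 2 to 3 kb, 15.1% of the 760 at 3 to 5 kb and 15.2% of the 1357 at 5 to 8 kb. Set D was therefore lowest between 0.5 and 3 kb, not at the greatest distance.

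Outside H3K4me3, shares just inside and just outside each class limit were close. Around 2 kb, at 1 to 2 and 2 to 3 kb, MYC of either list met 20.6% and 17.8% of regions and H3K4me1 59.0% and 60.7%. Around 10 kb, at 8 to 10 and 10 to 12.5 kb, MYC of either list met 20.8% and 19.7% of regions and H3K4me1 54.6% and 57.2%. Around 50 kb, at 40 to 50 and 50 to 62.5 kb, the shares were 19.3% and 18.5% for MYC and 56.0% and 55.2% for H3K4me1. Around 200 kb, at 160 to 200 and 200 to 250 kb, they were 19.5% and 21.0% for MYC and 53.7% and 53.1% for H3K4me1.

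**Figure D4:**
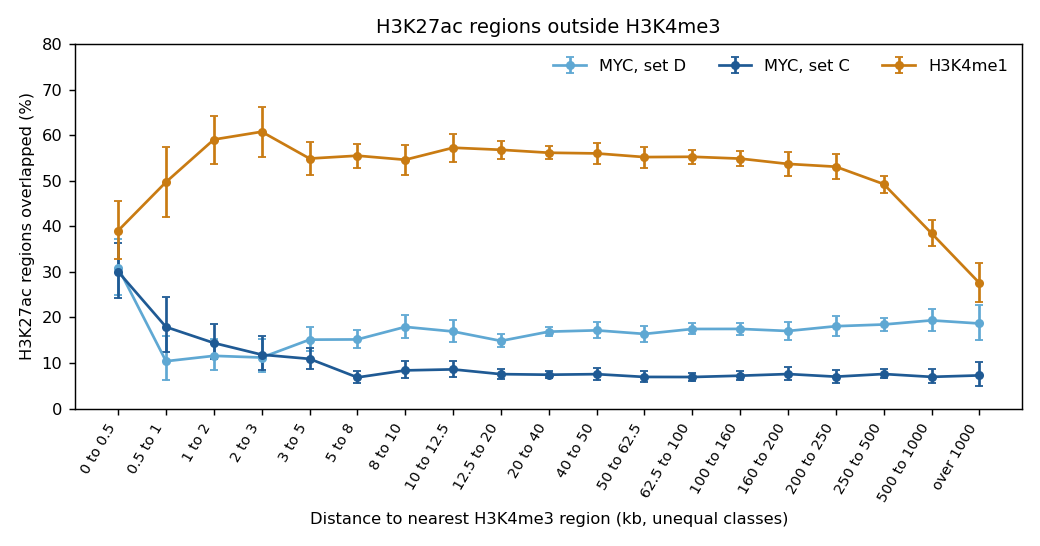
Share of H3K27ac regions outside H3K4me3 (%) that meet MYC of set C, MYC of set D or H3K4me1, in 19 unequal classes of distance (kb), with exact 95% intervals. MYC of set D is lowest between 0.5 and 3 kb, MYC of set C stays under 9% from 5 kb on, and H3K4me1 falls mainly beyond 250 kb, to 27.6% over 1000 kb.

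MYC was most frequent on the widest regions, and within each width quintile it was highest at H3K4me3. In every class the share with MYC was highest in the widest quintile of regions, those of at least 981 bp. At 10 to 50 kb it was 5.43% in the narrowest quintile (155 to 257 bp) and 45.8% in the widest, and over 200 kb 8.79% and 40.3%. At H3K4me3 the same quintiles had 67.0% and 91.4%. Outside H3K4me3 the highest share in any quintile was 50.5% (40.2 to 60.8%), in the widest regions under 2 kb. For set C alone the narrowest regions at H3K4me3 and the widest under 2 kb had overlapping intervals, at 40.2% (37.0 to 43.5%) and 40.2% (30.4 to 50.7%). With all 5 quintiles given equal weight, MYC met 81.9% of regions at H3K4me3 and between 20.1% and 21.6% from 2 kb outward.

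MYCN, the sparsest list, also fell at the edge of H3K4me3. It met 697 acetylated regions, 1.76% of all, of which 583 overlapped H3K4me3. At H3K4me3 the share was 6.37% (5.88 to 6.89%). It was 2 of 760 (0.263%) under 2 kb, 12 of 3308 (0.363%) at 2 to 10 kb, 31 of 10235 (0.303%) at 10 to 50 kb, 42 of 10406 (0.404%) at 50 to 200 kb and 27 of 5663 (0.477%, 0.314 to 0.693%) over 200 kb. The intervals of all 5 classes outside H3K4me3 overlap, and the class under 2 kb rests on 2 regions. The difference between H3K4me3 and over 200 kb was 5.89 points, and 3.13 points with only the wider MYCN peaks kept.

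Acetylated regions with MYCN nearly all met MYC of set D, and fewer met MYC of set C. Outside H3K4me3, 113 of the 114 regions with MYCN met MYC of either list (99.1%, 95.2 to 99.98%), against 19.2% of the 30258 regions without MYCN. Set D met 112 of the 114 (98.2%) and set C 63 (55.3%, 45.7 to 64.6%), so the share rests on set D. They were also wider, with a median of 1054.5 bp against 499 bp, and 72.8% of them (63.7 to 80.7%) met H3K4me1 against 53.7%. At H3K4me3, set D met 580 of the 583 regions with MYCN and set C 461 (79.1%), and their median width was 850 bp against 721 bp without MYCN. H3K4me1 was met by 16.1% of those 583 regions (13.2 to 19.4%) and by 17.1% of the others, and these intervals overlap. Width was not matched in these comparisons.

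H3K4me1 ran opposite to MYC at the edge of H3K4me3. Over the list 45.3% of acetylated regions met H3K4me1. At H3K4me3 the share was 17.1% (16.3 to 17.9%). It was 50.8% under 2 kb (47.2 to 54.4%), 55.6% at 2 to 10 kb (53.9 to 57.3%), 56.4% at 10 to 50 kb (55.4 to 57.3%), 54.9% at 50 to 200 kb (53.9 to 55.9%) and 46.2% over 200 kb (44.9 to 47.5%). The share at H3K4me3 was thus 29.2 points below the last class, itself the lowest outside H3K4me3. Against only the wider H3K4me3 regions that order changed, with 45.5% under 2 kb and 47.9% over 200 kb, and the drop from 10 to 50 kb to over 200 kb was 5.33 points, compared with 10.2. In bases, H3K4me1 covered 6.85% of acetylated DNA at H3K4me3, 38.1% at 2 to 10 kb and 26.8% over 200 kb.

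H3K4me1, unlike MYC, continued to thin out in the most remote regions. It met 53.1% of regions at 200 to 250 kb (50.3 to 55.8%), 49.3% at 250 to 500 kb (47.4 to 51.1%), 38.5% at 500 to 1000 kb (35.7 to 41.3%) and 27.6% of the 439 beyond 1000 kb (23.4 to 32.0%). Over the same steps MYC of either list met 21.0%, 20.3%, 21.4% and 21.0%. The median width of the regions was 513, 531, 512 and 481 bp. The 1601 regions beyond 500 kb met H3K4me1 in 35.5% of cases. Of the 15 chromosomes with at least 50 of them, all 15 had a lower H3K4me1 share there (28.8 to 55.1%) than at 10 to 50 kb (43.6 to 69.5%). MYC was higher beyond 500 kb on 9 of the 15. Regions without H3K4me1 in the remote class were also farther from any, with the nearest H3K4me1 region at a median of 27.9 kb over 200 kb against 10.4 kb at 10 to 50 kb. No list of artefact-prone regions of hg19 was used here, and the part of repeats in the remote classes was not tested.

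MYC without H3K4me1 was the main combination at H3K4me3, and H3K4me1 without MYC at 10 to 50 kb. At H3K4me3, 70.8% met MYC without H3K4me1, 14.2% met both, 2.88% H3K4me1 alone and 12.2% neither. At 10 to 50 kb, 5.77% met MYC alone, 12.8% both, 43.5% H3K4me1 alone and 37.8% neither. Over 200 kb the class with neither was the most frequent, at 44.8% (43.5 to 46.1%), and MYC alone rose to 9.01% (8.27 to 9.78%). Regions with neither were the narrowest, with medians of 331 bp at 10 to 50 kb and 384 bp over 200 kb, and those with both the widest, at 926 and 853 bp.

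At 2 kb or more from H3K4me3, MYC of either list was more frequent at acetylated regions with H3K4me1, but these were also wider. At 10 to 50 kb, MYC of either list met 22.8% of regions with H3K4me1 (21.7 to 23.9%) and 13.2% of those without (12.3 to 14.3%), with median widths of 611 and 363 bp. With equal weight over the width quintiles the shares were 21.1% and 19.6%. The lists then parted, since set D gave 19.1% with H3K4me1 and 16.5% without, and set C 7.54% and 10.7%. Among the widest quintile, set C met 21.9% of regions with H3K4me1 and 31.7% of those without, and set D 40.7% and 41.4%. From 2 kb outward, the direction of this association therefore depends on the MYC list once width is evened out. Under 2 kb, with the same weights, both lists were lower with H3K4me1. Set D met 18.3% with it and 20.5% without, and set C 20.5% and 24.9%.

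At H3K4me3, H3K4me1 was more frequent on acetylated regions that crossed the edge, and MYC was frequent on both kinds and somewhat more so inside. H3K4me1 met 8.81% of the 6344 acetylated regions wholly inside H3K4me3 (8.13 to 9.54%) and 35.7% of the 2812 that extended beyond it (33.9 to 37.5%). MYC of either list met 87.4% (86.6 to 88.2%) of the first and 79.4% (77.9 to 80.9%) of the second, and MYCN 7.24% and 4.41%. The regions inside were the narrower ones, with a median of 662 bp against 913 bp, so that MYC was more frequent there despite the smaller width. With equal weight over the width quintiles MYC met 85.1% and 72.9%, and H3K4me1 8.61% and 31.5%.

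Crowded acetylated regions met both H3K4me1 and MYC more often. Among regions at least 2 kb from H3K4me3, H3K4me1 met 41.0% of the 3667 with no other acetylated region within 50 kb, 50.1% of those with 1 or 2, 56.6% with 3 to 5, 61.6% with 6 to 10 and 65.9% of the 528 with 11 or more. MYC of set C met 4.23%, 5.24%, 6.97%, 13.0% and 19.1% in the same order, and MYC of set D 15.2%, 15.6%, 16.9%, 20.2% and 21.4%. The median width rose as well, from 464 to 565.5 bp. With equal weight over the width quintiles set C still ran from 4.98% to 18.5% and H3K4me1 from 43.6% to 65.2%. Set D then ran only from 16.8% to 20.4%, so the rise of MYC was mainly that of set C. Over 200 kb from H3K4me3, H3K4me1 met 36.0% of isolated regions (33.7 to 38.2%) and 56.9% of those with 6 or more neighbours (52.5 to 61.3%). At 10 to 50 kb these shares were 49.8% (43.0 to 56.5%) and 62.2% (60.5 to 64.0%).

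The step at H3K4me3 was found on every chromosome. MYC of either list met between 75.9% (chromosome 13) and 89.8% (chromosome 20) of acetylated regions at H3K4me3, and between 13.5% (chromosome 13) and 24.9% (chromosome 21) of those 2 kb or more away, so that the ranges over 23 chromosomes did not overlap. H3K4me1 was lower at H3K4me3 than 2 kb or more away on 23 of 23 chromosomes. Its share spanned more points than that of MYC of either list, from 31.2% of 468 regions on chromosome 13 to 66.4% (63.5 to 69.2%) on chromosome 20 among regions 2 kb or more away. At H3K4me3, chromosome 13 had H3K4me1 at 1.42% of 141 regions (0.172 to 5.03%) and MYC of set C at 30.5%, the lowest of the 23 for either list. Acetylated regions numbered 6.48 per Mb on chromosome 13 and 29.0 per Mb on chromosome 17, the ends of the range. Over the 23 chromosomes, this density and the H3K4me1 share 2 kb or more away had a Spearman rho of 0.899, given as a description, since all points share the same libraries. For MYC of either list the rho was 0.306. Chromosome 19 stood out in its makeup, with 52.2% of 1226 regions at H3K4me3 and 0.816% over 200 kb, against medians of 22.9% and 15.3% over chromosomes. Leaving out chromosome 13 or 19 changed the MYC difference between H3K4me3 and over 200 kb from 64.2 to 64.1 points in either case.

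**Figure D5:**
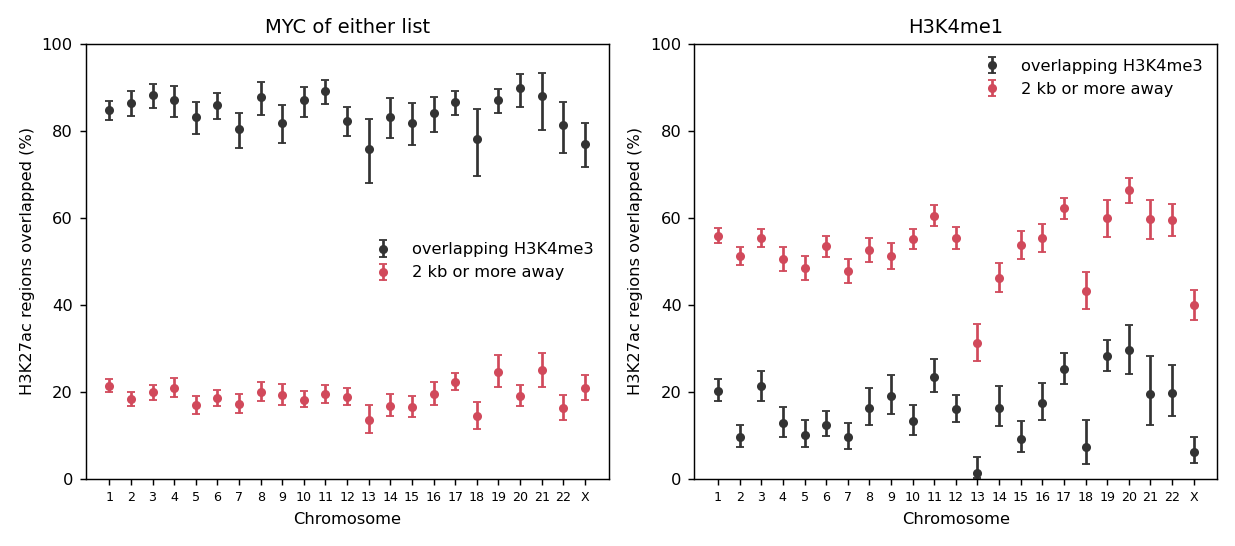
Share of H3K27ac regions (%) on each chromosome that meet MYC of either list (left) or H3K4me1 (right), at H3K4me3 (dark) and 2 kb or more away (red), with exact 95% intervals. The MYC intervals of the 2 classes do not overlap on any chromosome, and H3K4me1 is lowest on chromosome 13 (31.2% away from H3K4me3).

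The 10 widest acetylated regions lay both at and away from H3K4me3. Of the 10, 3 overlapped H3K4me3 (23.2% of all regions), 9 met MYC of set D (31.6%), 8 met MYC of set C (19.1%), 7 met H3K4me1 (45.3%) and none met MYCN (1.76%). In the widest quintile 2813 of 7907 regions overlapped H3K4me3, against 910 of 7886 in the narrowest. The widest of all, chr6:157097952-157101639 (3688 bp), lay wholly inside H3K4me3, met MYC of both lists and no H3K4me1. Outside H3K4me3 the widest of each class were chr2:240248484-240252006 (3523 bp, 1.08 kb away), chr1:45272532-45275557 (3026 bp, 3.96 kb), chr4:10094739-10098177 (3439 bp, 18.995 kb), chr9:116340944-116344444 (3501 bp, 76.4 kb) and chr9:85377273-85380389 (3117 bp, 296 kb). All 5 met MYC in both lists. Their H3K4me1 differed widely. The region on chromosome 1 was covered by H3K4me1 over its whole length, that on chromosome 9 at 76.4 kb held 4 H3K4me1 regions over 65.1% of its bases, and those at 18.995 and 296 kb met none.

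The region on chromosome 1 was also the widest with MYCN at 2 to 10 kb. The widest with MYCN in the other classes were chr3:151984529-151987145 at H3K4me3 (2617 bp), chr10:32049183-32049593 under 2 kb (411 bp), chrX:154012301-154014859 at 10 to 50 kb (2559 bp), chr20:39509042-39511734 at 50 to 200 kb (2693 bp) and chr19:27731928-27734117 over 200 kb (2190 bp). All 5 met MYC of set D and H3K4me1, and those on chromosomes X and 19 met no MYC of set C. The region on chromosome 19 lay 549 kb from H3K4me3, held 2 MYCN peaks and was covered by MYC of set D over 67.6% of its bases. The most remote region of the list, chr21:9695903-9696169, lay 5655 kb from H3K4me3 and met MYC and H3K4me1. Neither this region nor the one on chromosome 19 was checked against artefact-prone regions or repeats of hg19. Genes are not named, since an hg19 annotation was not used here.

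H3K4me1 regions, the list most like this one in number, were rarer at H3K4me3 and more frequent just beside it. Of 39503 H3K4me1 regions, 5.18% overlapped H3K4me3 and 6.19% lay under 2 kb from it, against 23.2% and 1.92% of acetylated regions. At 10 to 50 kb, 50 to 200 kb and over 200 kb the H3K4me1 shares were 31.6%, 31.7% and 14.5%. The H3K4me1 regions under 2 kb were acetylated in 32.2% of cases (30.3 to 34.1%), below the 47.2% at 2 to 10 kb (45.7 to 48.7%) and the 51.0% over 200 kb (49.7 to 52.3%). MYC of either list met 68.0% of H3K4me1 regions at H3K4me3, 16.1% under 2 kb and between 12.3% and 13.4% from 2 kb outward, so that MYC stepped down at the edge of H3K4me3 in this list too. Seen from the factor, acetylation was common at MYC peaks of set D at every distance, at 74.2% at H3K4me3, 137 of 274 under 2 kb, between 65.7% and 69.3% from 2 to 200 kb and 60.7% over 200 kb (58.4 to 63.0%). At MYC peaks of set C it was 82.5% at H3K4me3 and 57.0% under 2 kb. From 2 to 200 kb it lay between 71.9% and 77.7%, and over 200 kb it was lower, at 54.0% (50.3 to 57.6%). At MYCN peaks it was 81.1% at H3K4me3 and 28 of 33 (84.8%, 68.1 to 94.9%) over 200 kb. The lists differ in region width and, where the tool is known, partly in caller, and these shares were not tested against each other.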

How the data were processed

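The authors deposited lists of regions with 4 columns and no score. Positions are in bases of hg19 by the submitters' processing notes, which name MACS2 and SEACR without versions. Neither H3K27ac nor H3K4me1 has a header line, and the sources used here do not say which tool called either. SEACR on paired reads gave MYC of set C, MACS2 gave MYC of set D and H3K4me3, and cutruntools gave MYCN, per the file headers.

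Regions on the autosomes and X were used, which left out 46 of 39574 H3K27ac regions. Overlap means at least 1 bp shared. Distance is the gap between edges, and a region that touches without overlap counts as under 2 kb. Neighbours within 50 kb were counted between centres. Quintiles of width were set over the whole list. Regions named are the 10 widest, the widest of each class and the widest with MYCN of each class. The members, lists and classes were chosen with earlier results of these data known. Gene lists planned for an hg19 annotation were not used here.

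In simulated data 1200 of 1200 planted distances were recovered, and 6 of 6 comparisons on the real lists equalled bedtools 2.31.1. Intervals were computed with scipy 1.17.1 under Python 3.11.15 (numpy 2.4.6), and plots drawn with matplotlib 3.10.9. Alternatives covered the overlap and distance rules, widths, joining, the MYC lists, chromosomes and spacing.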

Additional observations from a re-analysis of the deposited data

How the results depend on the processing

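The share at H3K4me3 stayed above every share from 2 kb outward for MYC of either list (13 of 13 alternatives), MYC of each list and MYCN (10 of 10 each), and below it for H3K4me1 (10 of 10). These are the alternatives that apply to each list and keep peaks in H3K4me3. The values themselves moved. The share of acetylated regions at H3K4me3 (23.2%) was 21.0% by region centre, 30.5% among the wider H3K27ac regions, 15.3% against the wider H3K4me3 regions and 22.2% without chromosome 19. The MYC difference between H3K4me3 and over 200 kb (64.2 points) was 65.5 by region centre, 58.8 among the wider H3K27ac regions, 60.3 with equal weight over quintiles, 59.5 with the wider MYC peaks, 46.2 with MYC in both lists and 68.0 among regions at least 5 kb from the next. With either MYC list left out it lay between 49.2 and 61.2. The MYCN difference (5.89) was 6.87, 6.78, 5.13 and 3.13 with wider H3K27ac, wider H3K4me3, equal weights and wider MYCN peaks, and 6.69 with neighbours at least 5 kb away. The H3K4me1 difference (-29.2) was -32.3 by centre, -38.0 and -37.3 with wider H3K27ac or H3K4me3, -31.7 with equal weights and -20.7 with wider H3K4me1 peaks. The median gap (21.0 kb) was 43.5 kb between the wider regions and 21.9 kb after joining within 1 kb. The MYC share at 10 to 50 kb minus that over 200 kb (-2.14 points) turned to 1.53 with wider H3K4me3, 0.301 without the set D list and 0.294 with both lists required, and the cause was not tested. By region centre the shares under 2 kb rose most, MYC from 28.4% to 52.4%, set D from 17.2% to 43.7% and MYCN from 0.263% to 2.05%. With the wider MYC peaks the MYC share at 10 to 50 kb was 7.27% (main 18.6%). Of 343 shares recomputed by class, 159 left their main interval. The settings on chromosomes, spacing, both MYC lists and peaks that touch H3K4me3 were chosen after the data were examined. No paired analysis was possible because, among the lists used, only MYC has 2 libraries. With no read counts, the depth limits cannot be given.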

Other observations

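H3K4me1 often lay beside acetylated regions and not only on them. Of the 10235 regions at 10 to 50 kb from H3K4me3, 14.8% had H3K4me1 within 1 kb on both sides, 35.9% on a single side and 49.3% on neither. At H3K4me3 these shares were 1.78%, 15.8% and 82.4%, and over 200 kb 9.45%, 31.0% and 59.5%. An H3K4me1 region on the acetylated region or under 1 kb from it was found for 24.1% of regions at H3K4me3 (23.2 to 24.9%), between 60.8% and 62.6% from there to 200 kb, and 52.9% over 200 kb (51.6 to 54.2%).

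Within acetylated regions MYC peaks tended to the centre more than H3K4me1 did. Of the 6220 MYC peaks of set D with their centre in an acetylated region at H3K4me3, 48.1% (46.8 to 49.3%) had it in the third around the region's centre, and of 1547 at 10 to 50 kb 47.0% (44.5 to 49.5%). For H3K4me1 these shares were 32.7% (30.3 to 35.2%) and 39.2% (37.9 to 40.6%). For the 544 MYCN peaks at H3K4me3 the share was 37.7% (33.6 to 41.9%). Centres of wide peaks are drawn to the middle of a region of like width, and this was not taken into account.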
